A study of Mus musculus with 6 samples.

Results

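The sarcomere and Z-disc genes are 38 genes listed by the part of the contractile apparatus that their products build. They encode the thin filament, the light chains and binding proteins of the thick filament, titin and the M band, the Z disc, and the proteins that link, signal from or assemble these structures. The myosin heavy chains were left out of the list. A gene was kept when it had 10 or more counts summed over the 6 mice, and all 38 of the 38 listed genes met this rule, among the 31053 genes of the deposited table. All 38 also passed the expression minimum of the test, together with 11633 genes in all.

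The RNA came from quiescent muscle stem cells (qMuSCs), the Pax7-positive cells that rest beside the muscle fibers, sorted by FACS on GFP from hindlimb muscles of mice aged 3 to 4 months. The 3 WT mice (c124, c129 and c130) were Pax7nGFP/+;Pax7+/+;Dio2Fl/Fl and the 3 cD2KO mice (fl125, fl126 and fl128) were Pax7nGFP/+;Pax7-CreERT2/+;Dio2Fl/Fl. All 6 mice carried the GFP reporter, which the Pax7 gene drives, and floxed alleles of Dio2, and all received tamoxifen. Only the cD2KO mice carried the Cre allele, which is active where Pax7 is expressed, so that loss of Dio2, the gene of the deiodinase D2 that activates thyroid hormone, and the presence of CreERT2 cannot be told apart in this comparison.

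The sarcomere is the repeating unit of striated muscle. Thin filaments of actin, nebulin, tropomyosin and troponin are anchored in the Z disc by alpha-actinin and its partners, thick filaments of myosin are held together at the M band by myomesins, and titin spans from the Z disc to the M band. Troponin and myosin light chains exist as fast isoforms and as slow isoforms that the heart often shares, and thyroid hormone is known to favour fast over slow isoforms in muscle fibers. A resting stem cell has no sarcomeres, and the bulk of these transcripts in skeletal muscle comes from the fibers.

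Each mouse gave between 2184073 and 3897787 counts, and the totals overlapped (exact permutation test, two-sided, p = 0.7, with 0.1 the smallest p for 3 mice against 3). A count of 3, taken as the floor, stood for 0.773 to 1.37 CPM (counts scaled to a library of 1e6, after TMM factors), counting error alone being considered. Dio2 had 21, 5 and 10 counts in the WT mice and 15, 5 and 1 counts in the cD2KO mice, where the 15 belong to the library labelled fl125, which therefore goes against its label at the level of the whole gene. Its mean level was 3.58 ± 1.78 CPM for WT and 2.96 ± 3.43 CPM for cD2KO (SD, n = 3, exact permutation p = 0.7). All directions given below include the library labelled fl125 unless stated. Values per mouse follow the order c124, c129, c130 for WT and the library labelled fl125, then fl126 and fl128, for cD2KO. Levels of different genes are not compared here, because whether reads were counted over whole transcripts or at their ends is not given in the sources used here.

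Of the 38 genes, cD2KO qMuSCs had 12 at a higher and 0 at a lower level than WT, called at p under 0.05 without adjustment in the quasi-likelihood test of edgeR. The 12 genes are 31.6% of the list, where 5.34% of all 11633 genes tested were higher and 6.62% were lower. The unadjusted p of the 12 genes ran from 9.9e-05 to 0.0486. DESeq2 called 18 higher and 0 lower, and limma voom called 11 higher and 0 lower. Summed markers of mural cells were also higher in every cD2KO mouse than in every WT mouse, and with a score of these markers in the model 0 of the 38 genes were higher, where 0.842% of all genes were. The median log2 fold change of the list was 0.68, against -0.020 for all genes tested. The log2 fold change was above 0 in 36 of the 38 genes (35 when scaled to total counts alone, 34 in limma voom), while 48.1% of all genes tested were above 0. In 10 of the 38 genes every cD2KO mouse lay above every WT mouse, which held for 8.05% of all genes tested, and in 0 genes every cD2KO mouse lay below every WT mouse, which held for 10% of all genes tested.

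With p adjusted by Benjamini-Hochberg across the whole fit, 0 of the 38 genes fell under 0.05 in edgeR, where 1 gene, or 0.0086% of all genes tested, was higher at that level. The lowest adjusted p of the list was 0.0885 (Myom1, edgeR). DESeq2's Wald test gave 3 of the 38 an adjusted p under 0.05 (Myom1, Des and Tcap), where 0.868% of all genes tested were higher. In limma voom 0 of the 38 passed. With the library labelled fl125 left out, 5 of the 38 had an edgeR adjusted p under 0.05 (Tcap, Myom1, Des, Pdlim3 and Xirp1, the lowest at 0.0179), where 1.51% of all genes tested were higher at that level. In bulk RNA of sorted cells, a different number of cells that carry a transcript and a different amount of it per cell cannot be told apart. The replicates are separate mice, with 1 library each.

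**Figure D1:**
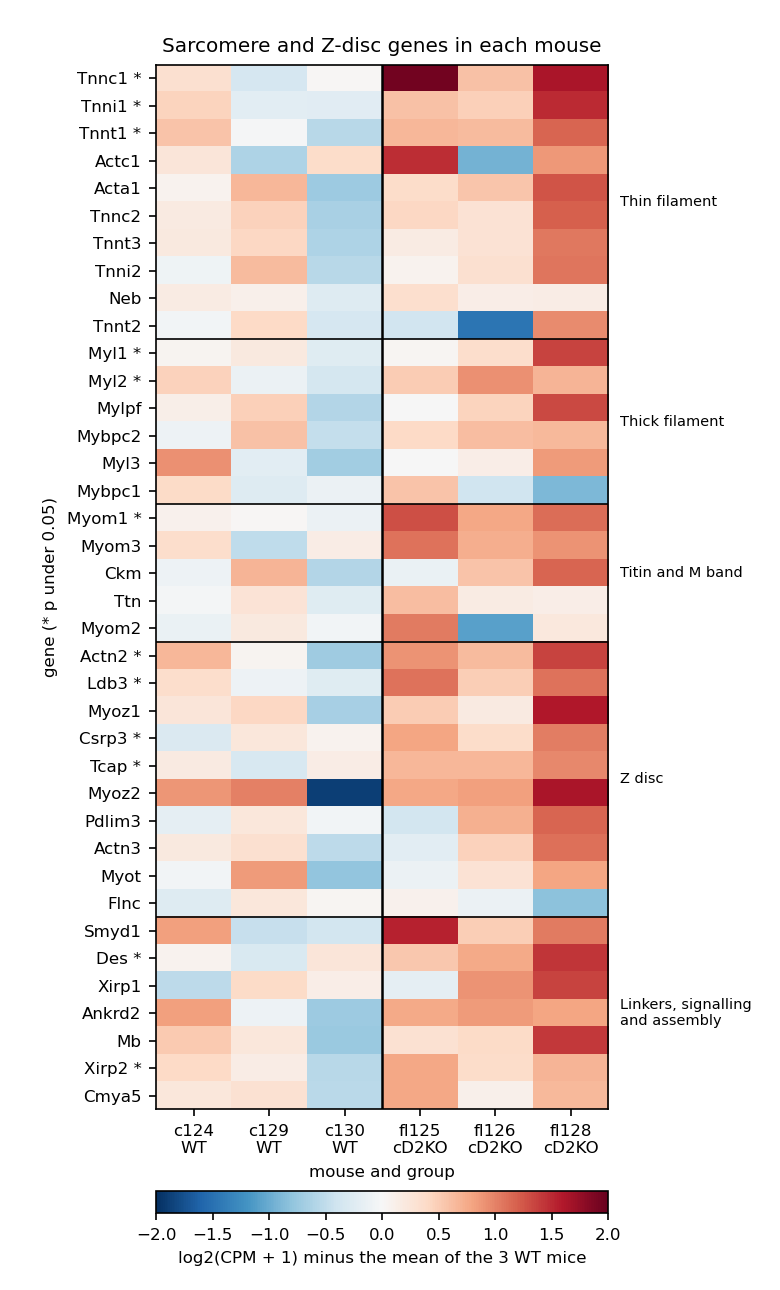
Heat map of the 38 sarcomere and Z-disc genes (rows, by structural group) in the 6 mice (columns), coloured by log2(CPM + 1) minus the mean of the 3 WT mice, with an asterisk at the 12 genes with p under 0.05. The column of fl128 is red in most rows and the column of c130 is blue in most rows, with c130 the lowest mouse for 25 genes and fl128 the highest for 21.

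The mice contributed unequally. The cD2KO mouse fl128 was the highest of the 6 mice for 21 of the 38 genes, the library labelled fl125 for 12, and the WT mouse c130 was the lowest for 25. The 38 genes together took 0.574%, 0.728% and 0.404% of all counts in the WT mice and 0.674%, 0.712% and 1.13% in the cD2KO mice. Their summed level was 5761, 7029 and 3971 CPM in WT and 6704, 7292 and 12080 CPM in cD2KO. The library labelled fl125 thus lay below the WT mouse c129 in this sum, and the groups overlapped. Within WT, the highest mouse was over 2-fold above the lowest for 18 of the 38 genes. This spread was narrowest for Myom1, at 1.15-fold, and widest for Myoz2, at 13.5-fold, with a median of 1.93-fold in WT and 1.88-fold in cD2KO.

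With c130 left out 5 genes were higher, where 3.92% of all genes tested were, and with fl128 left out 5 genes, where 3.46% were. With the library labelled fl125 left out 20 genes were higher, where 7.93% of all genes tested were. Tnnc1, Myom1, Tcap, Ldb3 and Des had p under 0.05 in each of the 6 fits that leave out a mouse, and 4 of these, Myom1, Tcap, Ldb3 and Des, also with c130 and fl128 both left out, a choice made after the data had been seen. In that fit the median log2 fold change of the list was 0.24, and 4 of the 38 genes were higher where 2.49% of all genes tested were. The 6 fits that leave out a mouse share most of their mice and are not independent. The share of all genes with p under 0.05 in each of the 6 was not counted.

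**Figure D2:**
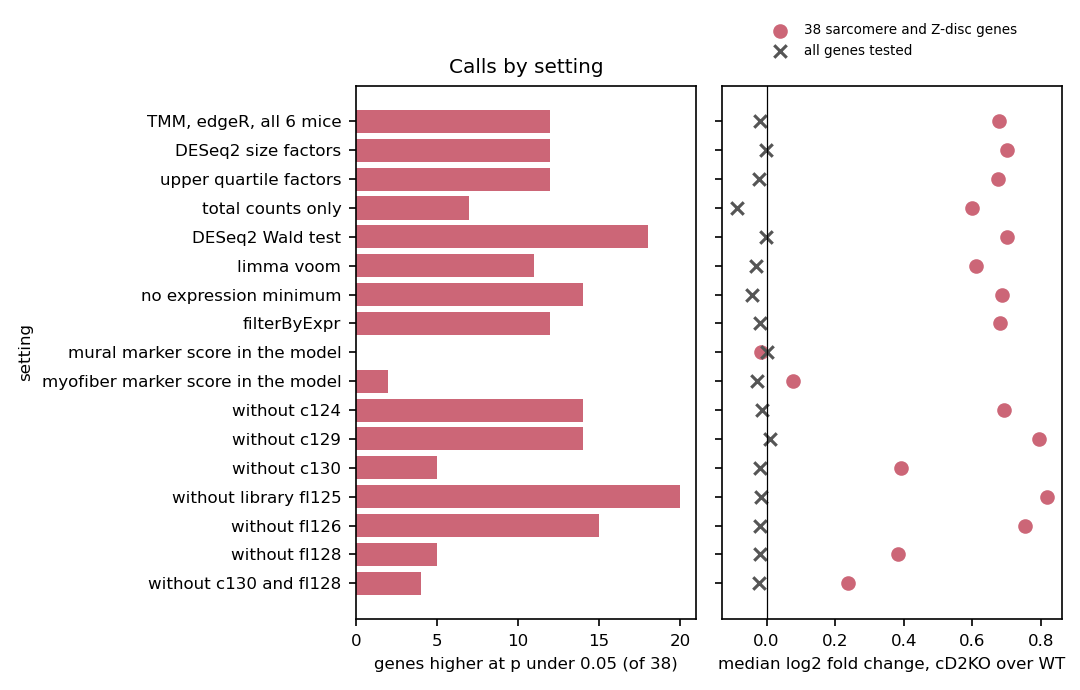
Number of the 38 genes higher in cD2KO at p under 0.05 (left, bars from 0) and the median log2 fold change of the 38 genes (circles) and of all genes tested (crosses) under each setting of the fit. The count lies between 0 with the mural marker score in the model and 20 without the library labelled fl125, and the median of all genes stays near 0 throughout.

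The 250 bases before the transcription start are shown for 4 of these 5 genes, those for which RefSeq (GRCm38.p6, the same assembly as mm10) gave a window, because their products lie in different parts of the sarcomere and their transcripts were higher in cD2KO under each mouse left out. Capitals mark the motifs that were searched on both strands: the E-box CANNTG (bound by MyoD and its relatives), the MCAT box CATTCC (bound by TEAD factors), the TATA box TATAAA, the CArG box (bound by SRF) and the MEF2 site, which can contain a TATA box. The windows are chr17:71019307-71019556 (plus strand, inside the annotated Myom1 gene), chr14:34588608-34588857 (minus strand), chr1:75360042-75360291 (plus strand) and chr14:31208062-31208311 (plus strand), in the order of the lines below.
Myom1: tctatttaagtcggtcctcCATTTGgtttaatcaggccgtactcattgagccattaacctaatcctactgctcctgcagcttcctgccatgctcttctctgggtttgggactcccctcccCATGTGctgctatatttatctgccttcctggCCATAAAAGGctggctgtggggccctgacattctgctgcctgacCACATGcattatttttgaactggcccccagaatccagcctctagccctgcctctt
Ldb3: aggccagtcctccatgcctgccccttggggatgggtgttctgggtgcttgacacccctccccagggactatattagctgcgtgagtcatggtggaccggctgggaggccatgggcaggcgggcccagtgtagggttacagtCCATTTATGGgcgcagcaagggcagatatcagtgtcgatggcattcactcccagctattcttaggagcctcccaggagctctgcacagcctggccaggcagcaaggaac
Des: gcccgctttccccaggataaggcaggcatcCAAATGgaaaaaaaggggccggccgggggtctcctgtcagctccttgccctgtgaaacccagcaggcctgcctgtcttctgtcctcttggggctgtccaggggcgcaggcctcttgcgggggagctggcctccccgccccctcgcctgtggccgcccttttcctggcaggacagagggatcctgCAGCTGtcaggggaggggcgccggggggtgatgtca
Tnnc1: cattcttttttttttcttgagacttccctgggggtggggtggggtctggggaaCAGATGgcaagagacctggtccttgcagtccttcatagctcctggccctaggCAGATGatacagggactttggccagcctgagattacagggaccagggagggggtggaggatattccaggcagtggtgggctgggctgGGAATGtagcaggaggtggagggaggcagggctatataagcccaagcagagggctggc
Myom1 held a CArG box that began 99 bases before the start and 3 E-boxes, Ldb3 a CArG box 109 bases before the start and no E-box, Des 2 E-boxes, and Tnnc1 2 E-boxes and an MCAT box on the opposite strand 58 bases before the start.

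Windows on chromosome 18, where Myot lies, were left out. Outside it, windows were found for 29 of the 38 genes, 37 windows in all because some genes have more than 1 start. A CArG box was in 6 of the 37 windows (16.2%) and in 1.47% of all 32851 windows outside chromosome 18. An E-box was in 83.8% of the 37 windows and in 66.2% of all, an MCAT box in 21.6% and 12.6%, a MEF2 site in 10.8% and 2.92%, and a TATA box in 16.2% and 12.4%. Besides Myom1 and Ldb3, whose 2 overlapping windows hold the same site, the CArG box was in the windows of Acta1, Actc1 and Myl3. Among the 15 windows of the genes with p under 0.05 the CArG box was in 3 (20%), which belong to Myom1 and Ldb3 alone, an E-box in 86.7%, an MCAT box in 13.3%, a MEF2 site in 6.67% and a TATA box in 20%. These are matches of letters in the given windows, and binding was not measured here.

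In the thin filament, the 3 slow troponin subunits were called higher in cD2KO with all 6 mice. The fast ones, Tnnc2, Tnnt3 and Tnni2, also had log2 fold changes above 0 (0.62, 0.50 and 0.47) but were not called. The difference between slow and fast troponins was not tested. Of the 10 thin filament genes 3 were higher and 0 lower, where 5.34% of all genes tested were higher. Their median log2 fold change was 0.65. Tnnc1 encodes troponin C of slow muscle and heart, the subunit that binds calcium. It had 16, 6 and 9 counts in WT and 32, 15 and 37 counts in cD2KO, or 4.12, 2.23 and 3.13 CPM against 14.6, 5.16 and 11.7 CPM. Every cD2KO mouse was above every WT mouse, but fl126 was close to the highest WT mouse. The log2 fold change was 1.69 (SE 0.58, edgeR adjusted p = 0.239), the largest of the 38 genes and one that rests on few counts. Tnnc1 (chr14:31208312-31211729) overlaps Nisch on the opposite strand, so some of its reads may belong to Nisch if the counting ignored strand.

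Tnni1 encodes slow troponin I, the inhibitory subunit. It was at 11.1, 6.68 and 6.61 CPM in WT and 12.3, 11.4 and 24.0 CPM in cD2KO. The groups did not overlap, although fl126 and the WT mouse c124 were nearly level. Its log2 fold change was 0.96 (SE 0.43, edgeR adjusted p = 0.396). Tnnt1, which encodes slow troponin T, the subunit that binds tropomyosin, was at 49.2, 32.3 and 21.9 CPM in WT and 52.4, 51.3 and 74.5 CPM in cD2KO. Its groups were also separate by a narrow gap, with a log2 fold change of 0.78 (SE 0.29, edgeR adjusted p = 0.316). Neither Tnni1 nor Tnnt1 had p under 0.05 without c129, without c130 or without fl128.

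Acta1, the skeletal muscle alpha-actin, was at 926, 1405 and 535 CPM in WT and 1140, 1307 and 2131 CPM in cD2KO. The groups overlapped, since c129 was above both fl126 and the library labelled fl125, and the log2 fold change was 0.68 (SE 0.35, edgeR adjusted p = 0.485). Tnnc2, the fast troponin C, was at 788, 953 and 443 CPM in WT and 921, 844 and 1583 CPM in cD2KO. It showed the same order of mice at the ends, with c130 lowest and fl128 highest, and a log2 fold change of 0.62 (SE 0.31, edgeR adjusted p = 0.466). The fast troponins Tnnt3 and Tnni2 had log2 fold changes of 0.50 (SE 0.30) and 0.47 (SE 0.33). Actc1, the cardiac alpha-actin, had a log2 fold change of 0.71 (SE 0.56) with the library labelled fl125 at 63.3 CPM and fl126 at 11.0 CPM. Nebulin, encoded by Neb and running along the thin filament, was at 0.20 (SE 0.20), and the cardiac troponin T gene Tnnt2 at 0.014 (SE 0.55). Acta1 and Actc1 are close in sequence to each other and to the smooth muscle actin Acta2, and how shared reads were counted is not given in the sources used here.

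**Figure D3:**
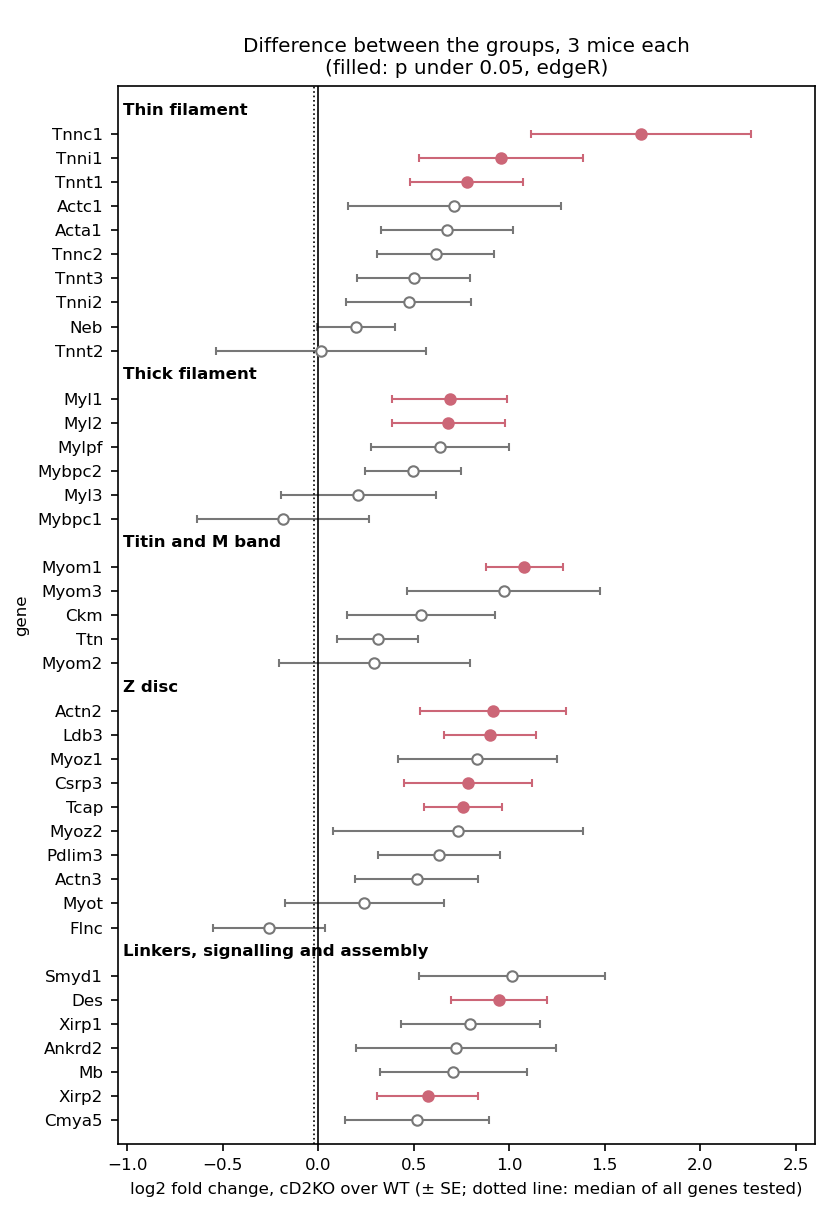
Log2 fold change of cD2KO over WT (points, horizontal bars ± SE from edgeR, 3 mice in each group) for the 38 genes by structural group, filled where p was under 0.05. Points to the right of 0 are higher in cD2KO. Only Mybpc1 and Flnc lie to the left of 0 in this fit (with total counts alone Tnnt2 does too, and in limma voom Tnnt2 and Myom2), and the dotted line at -0.020 marks the median of all genes tested.

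Of the 6 thick filament genes 2 were higher and 0 lower, where 5.34% of all genes tested were higher. Their median log2 fold change was 0.57. Myl1 encodes the essential light chain of fast myosin. It was at 505, 558 and 414 CPM in WT and 505, 625 and 1251 CPM in cD2KO. The library labelled fl125 lay within the WT range and fl128 was far above the other mice. The log2 fold change was 0.69 (SE 0.30, edgeR adjusted p = 0.395), and it was 0.20 without fl128. Its call was lost without c124, c129, c130 or fl128. Myl2, the regulatory light chain of slow and cardiac myosin, was at 30.1, 19.7 and 16.7 CPM in WT and 31.0, 41.3 and 35.1 CPM in cD2KO. Here fl126 was the highest mouse and the groups did not overlap, with a log2 fold change of 0.68 (SE 0.30, edgeR adjusted p = 0.383). The call was lost without c129, c130, fl126 or fl128. Myl2 overlaps Ccdc63 on the opposite strand.

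Mylpf, the regulatory light chain of fast myosin, was at 519, 665 and 320 CPM in WT and 476, 655 and 1203 CPM in cD2KO. The WT mouse c129 was above both fl126 and the library labelled fl125, and the log2 fold change was 0.64 (SE 0.36, edgeR adjusted p = 0.536). The myosin binding proteins C differed in sign, with 0.50 (SE 0.25) for the fast form Mybpc2 and -0.18 (SE 0.45) for the slow form Mybpc1. Myl3, the essential light chain of slow and cardiac myosin, was at 0.21 (SE 0.41). In none of these 4 genes were the groups separate.

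Of titin and the M band genes, 1 of 5 was higher and 0 lower, where 5.34% of all genes tested were higher. Their median log2 fold change was 0.54. Myom1 encodes myomesin 1, which cross-links thick filaments at the M band. It was at 124.1, 118 and 108 CPM in the WT mice and 287, 199 and 254 CPM in the cD2KO mice. The WT mice lay close together, and the lowest cD2KO mouse, fl126, was well above them. The means were 117 ± 8.38 CPM for WT and 247 ± 44.2 CPM for cD2KO (SD, n = 3), a 2.11-fold difference. The log2 fold change was 1.08 (SE 0.20, edgeR adjusted p = 0.0885), and between 0.999 and 1.21 with each mouse left out in turn. Myom1 (ENSMUSG00000024049, chr17:71002633-71126856, plus strand) overlaps Myl12a on the opposite strand and Gm26561 on its own strand, so that some of its reads may belong to these genes.

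The other myomesin genes had log2 fold changes of 0.97 (SE 0.51) for Myom3 and 0.29 (SE 0.50) for Myom2. Myom3 was at 6.18, 2.97 and 5.22 CPM in WT and 10.9, 8.25 and 9.47 CPM in cD2KO. Its groups did not overlap, yet it did not pass the test (edgeR adjusted p = 0.482). Ttn, which encodes titin, was at 191, 238 and 165 CPM in WT and 302, 221 and 215 CPM in cD2KO. The WT mouse c129 was above 2 of the cD2KO mice, and the log2 fold change was 0.31 (SE 0.21, edgeR adjusted p = 0.619). Ckm, the muscle creatine kinase that binds the M band, was at 246, 425 and 177 CPM in WT and 242, 392 and 595 CPM in cD2KO. The library labelled fl125 was below c124 and c129, and the log2 fold change was 0.54 (SE 0.39, edgeR adjusted p = 0.650).

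**Figure D4:**
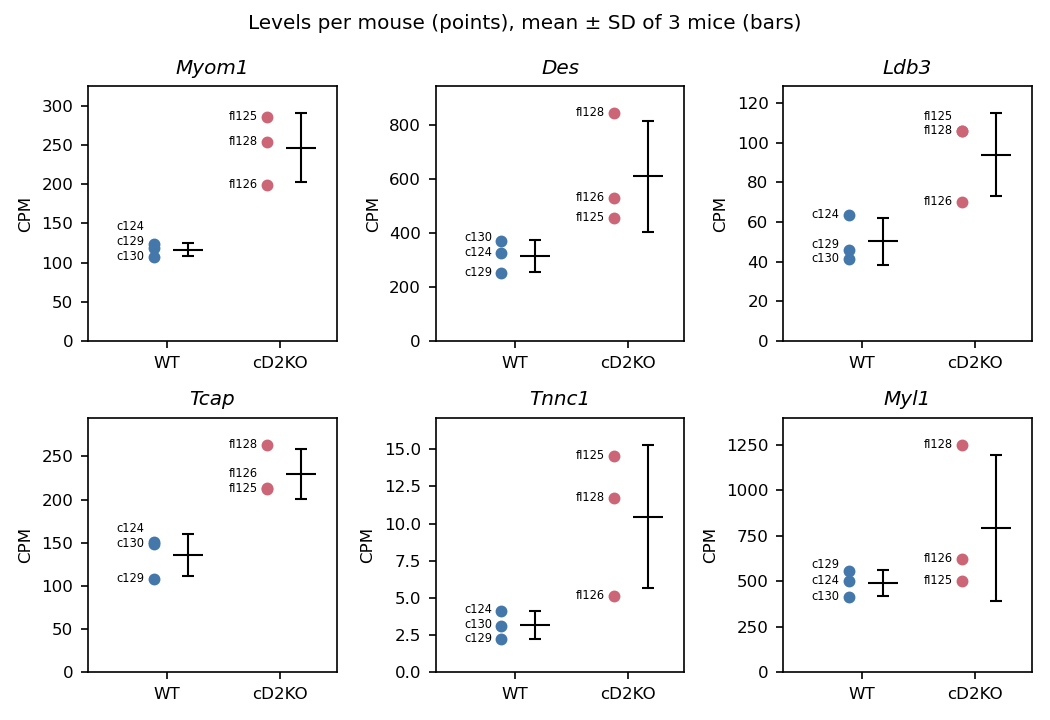
CPM of Myom1, Des, Ldb3, Tcap, Tnnc1 and Myl1 in each mouse (points) with the mean ± SD of the 3 mice of each group (bars), on axes that start at 0. In the panels of Myom1, Des, Ldb3, Tcap and Tnnc1 the cD2KO points lie above all WT points, and in the panel of Myl1 the library labelled fl125, at 505 CPM, lies within the WT range.

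Of the 10 Z-disc genes 4 were higher and 0 lower, where 5.34% of all genes tested were higher. Their median log2 fold change was 0.75. Tcap encodes telethonin, which caps the ends of titin in the Z disc. It was at 151, 108 and 148 CPM in WT and 212, 214 and 263 CPM in cD2KO. The groups did not overlap, and the log2 fold change was 0.76 (SE 0.21, edgeR adjusted p = 0.136). Ldb3 encodes a PDZ and LIM domain protein (also called ZASP or Cypher) that binds alpha-actinin. It was at 63.4, 45.7 and 41.4 CPM in WT and 106, 69.8 and 106 CPM in cD2KO. The groups did not overlap, with fl126 nearest to WT, and the log2 fold change was 0.90 (SE 0.24, edgeR adjusted p = 0.132). Tcap lies at chr11:98383811-98384953 (plus strand) and Ldb3 at chr14:34526603-34588682 (minus strand), and no other annotated gene overlapped either of them.

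Csrp3, the muscle LIM protein, was at 10.04, 14.9 and 13.2 CPM in WT and 22.3, 16.5 and 26.5 CPM in cD2KO. Its groups were separate, with a log2 fold change of 0.78 (SE 0.34, edgeR adjusted p = 0.379). Actn2, the alpha-actinin that cross-links actin in all striated fibers and the heart, was at 20.3, 13.0 and 7.31 CPM in WT and 24.1, 19.95 and 33.5 CPM in cD2KO. The WT mouse c124 lay just above fl126, so the groups overlapped, and the log2 fold change was 0.92 (SE 0.38, edgeR adjusted p = 0.369). The call of Csrp3 was lost without c124, c130 or fl128, and that of Actn2 without c129, c130 or fl128. Actn3, the alpha-actinin of fast fibers, had a log2 fold change of 0.52 (SE 0.32) and did not pass the test.

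Pdlim3, which encodes an alpha-actinin-binding protein, was at 117, 154 and 128 CPM in WT and 103, 217 and 299 CPM in cD2KO. The library labelled fl125 was the lowest of all 6 mice, while the other cD2KO mice were the highest. The log2 fold change was 0.63 (SE 0.32, edgeR adjusted p = 0.479), and with the library labelled fl125 left out Pdlim3 passed the adjusted threshold of 0.05 in edgeR. The calsarcin genes Myoz1 (fast fibers) and Myoz2 (slow fibers and heart) had log2 fold changes of 0.83 (SE 0.42) and 0.73 (SE 0.65). Myoz2 was at 3 counts in c130, at the floor. The myotilin gene Myot was at 0.24 (SE 0.41) and the filamin C gene Flnc at -0.26 (SE 0.29). Flnc had its lowest value in fl128, at 19.6 CPM against 29.1 to 41.2 CPM in WT, the opposite of most genes of the list in that mouse.

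Of the 7 genes of linkers, signalling and assembly 2 were higher and 0 lower, where 5.34% of all genes tested were higher. Their median log2 fold change was 0.72. Des encodes desmin, the intermediate filament that ties Z discs to each other and that smooth muscle and muscle stem cell progeny also express. It was at 326, 251 and 369 CPM in WT and 454, 530 and 842 CPM in cD2KO. All cD2KO mice lay above all WT mice, and fl128 was the highest. The means were 315 ± 59.6 CPM for WT and 609 ± 206 CPM for cD2KO (SD, n = 3). The log2 fold change was 0.95 (SE 0.25, edgeR adjusted p = 0.130). Des (chr1:75360329-75368579, plus strand) overlaps Gm15179 on the opposite strand. Xirp2, which encodes a Xin repeat protein that binds actin, was at 52.0, 43.4 and 26.5 CPM in WT and 67.9, 50.9 and 63.5 CPM in cD2KO. The WT mouse c124 was above fl126, and the log2 fold change was 0.57 (SE 0.27, edgeR adjusted p = 0.416). Its call was lost without c129, c130, fl128 or the library labelled fl125.

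Mb, which encodes the oxygen-binding myoglobin, was at 250, 205 and 104 CPM in WT and 217, 228 and 467 CPM in cD2KO. Only fl128 was above the WT range, and the log2 fold change was 0.71 (SE 0.38, edgeR adjusted p = 0.522). The related Xin gene Xirp1 had a log2 fold change of 0.80 (SE 0.37, edgeR adjusted p = 0.429), and it overlaps Cx3cr1, a gene of macrophages, on the same strand. Smyd1, a methyltransferase needed to assemble sarcomeres, was at 1.02 (SE 0.49, edgeR adjusted p = 0.436), Ankrd2, a stretch-responsive ankyrin repeat protein, at 0.72 (SE 0.52) and Cmya5, the costameric protein myospryn, at 0.52 (SE 0.38).

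Grouped by fiber type, 1 of the 8 fast isoforms (Tnnt3, Tnni2, Tnnc2, Myl1, Mylpf, Mybpc2, Actn3 and Myoz1) was higher, with a median log2 fold change of 0.57, and in 0 of the 8 were the groups separate. Of the 9 isoforms of slow fibers and heart (Actc1, Tnnt1, Tnnt2, Tnni1, Tnnc1, Myl2, Myl3, Myoz2 and Csrp3) 5 were higher, with a median of 0.73, and in 5 the groups were separate. Mybpc1, the slow partner of Mybpc2, was not in this set. It was not called, with a log2 fold change of -0.18 (SE 0.45). Actc1, Tnnt2 and Csrp3 of the slow and cardiac set have no fast partner in the pairs below. Over all genes tested 5.34% were higher, and in 8.05% every cD2KO mouse lay above every WT mouse. The counts of both sets moved with single mice. Of the fast isoforms 6 were higher without the library labelled fl125 (Tnnt3, Tnnc2, Myl1, Mylpf, Mybpc2 and Actn3), 5 without c129, 3 without fl126, 4 in DESeq2 (Tnnc2, Myl1, Mylpf and Myoz1) and 0 without c124, c130 or fl128. Of the slow and cardiac isoforms 5 were higher without the library labelled fl125, 2 without c129, and only Tnnc1 without c130 or without fl128. The share of all genes tested that were higher was 7.93% without the library labelled fl125, 4.33% without c129 and 4.09% without fl126. It was 5.18% without c124, 3.92% without c130, 3.46% without fl128 and 5.25% in DESeq2. The balance within a pair was read as the counts of the slow gene over those of both genes. For Tnnt1 with Tnnt3 this share was 12.2%, 7.27% and 9.86% in WT and 13.1%, 12.0% and 10.4% in cD2KO. For Tnnc1 with Tnnc2 it was 0.520%, 0.233% and 0.701% in WT and 1.56%, 0.608% and 0.733% in cD2KO, where the exact 95% binomial interval of the library labelled fl125 ran from 1.07% to 2.19% and that of c130 from 0.321% to 1.33%. For Mybpc1 with Mybpc2 it was 17.8%, 7.65% and 16.2% in WT and 14.8%, 6.73% and 4.61% in cD2KO. In these and the other 4 pairs (Tnni1 with Tnni2, Myl3 with Myl1, Myl2 with Mylpf, Myoz2 with Myoz1) the groups overlapped. Overlap of 3 mice with 3 cannot show that the balance of slow over fast transcripts was the same. Neither the shares of the pairs nor the difference between the fast and slow sets was tested.

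Of 40 other genes of the sarcomere, from a list written by hand, 34 were tested. Among these 6 were higher (17.6%) and 1 was lower, where 5.34% of all genes tested were higher and 6.62% were lower. Their median log2 fold change was 0.40. This median was 0.18 without fl128 and 0.14 without c130 and fl128. Tropomyosins wind along the thin filament and moved in both directions. Tpm2 was at 2088, 1678 and 1834 CPM in WT and 2504, 3580 and 6155 CPM in cD2KO (log2 fold change 1.13, SE 0.29, edgeR adjusted p = 0.124). Tpm1 was at 1706, 1732 and 1671 CPM in WT and 2380, 2621 and 3777 CPM in cD2KO (log2 fold change 0.78, SE 0.22, edgeR adjusted p = 0.151). Tpm3, the slow and cytoplasmic form, was at 134, 175 and 121 CPM in WT and 88.4, 95.6 and 89.1 CPM in cD2KO (log2 fold change -0.65, SE 0.20, edgeR adjusted p = 0.188). The groups did not overlap in any of these 3 genes. The Z-disc genes Pdlim7, with a log2 fold change of 1.25 (SE 0.25, edgeR adjusted p = 0.0885), and Synpo2, with 0.82 (SE 0.21, edgeR adjusted p = 0.124), were higher in every cD2KO mouse. Tpm1, Tpm2 and Synpo2 are also known from smooth muscle, which contains no sarcomeres.

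**Figure D5:**
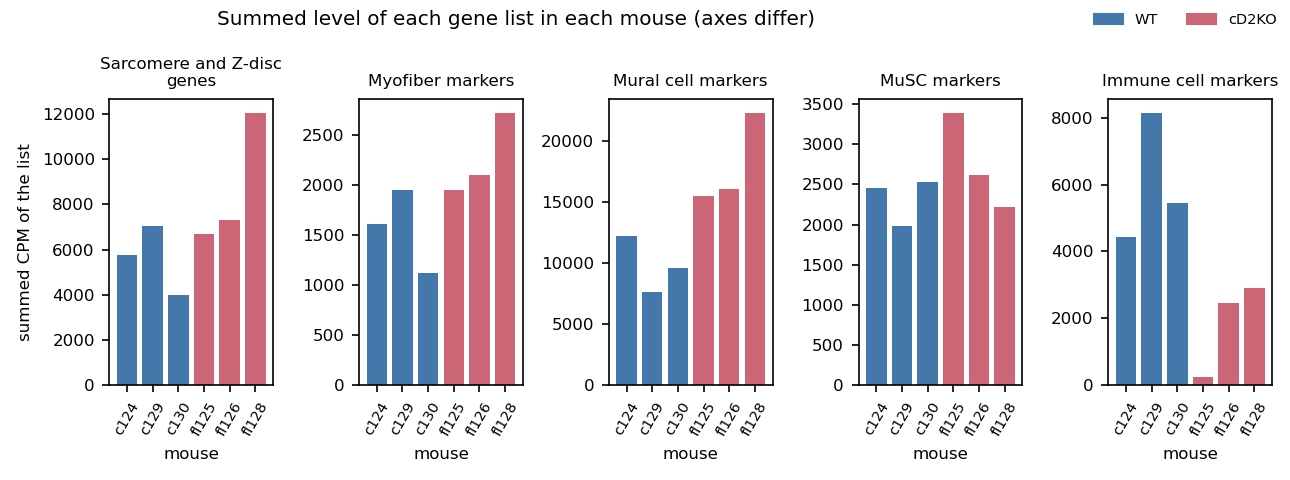
Summed CPM in each mouse (bars from 0, WT blue and cD2KO red, each panel with its own axis) of the 38 sarcomere and Z-disc genes and of hand-written lists of myofiber, mural cell, MuSC and immune cell markers. The mural panel has all cD2KO bars above all WT bars, the immune panel has all cD2KO bars below all WT bars, and in the sarcomere panel the WT mouse c129, at 7029 CPM, stands above the library labelled fl125, at 6704 CPM.

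The sorted cells held the markers of muscle stem cells. Pax7 was at 411, 213 and 434 CPM in WT and 691, 455 and 316 CPM in cD2KO, and all 15 markers of the list were tested, of which Itga7, Cdh15 and Myf5 were higher and Cxcr4 was lower. Their summed level was 1984 to 2528 CPM in WT and 2213 to 3398 CPM in cD2KO. Transcripts of mature fibers were present too. Of 20 myofiber markers 19 were tested and 5 were higher (Jsrp1, Cacna1s, Pygm, Cox6a2 and Myh2), with 0 lower, where 5.34% of all genes tested were higher. The median log2 fold change of these markers was 0.44. Their summed level was 1120 to 1949 CPM in WT and 1949 to 2725 CPM in cD2KO, with c130 the lowest and fl128 the highest, as for the 38 genes, and c129 level with the library labelled fl125. With the mean log2 CPM of the myofiber markers in the model, 2 of the 38 genes were higher, Myom1 (log2 fold change 1.04) and Tcap (log2 fold change 0.82), where 3.45% of all genes were, and the median of the list was 0.077. Among the genes no longer called, the log2 fold change in this model was 1.89 for Tnnc1, 0.85 for Des, 0.70 for Ldb3 and 0.63 for Csrp3, against 1.69, 0.95, 0.90 and 0.78 without the score, while it was 0.36 or less for Tnni1, Tnnt1, Myl1, Myl2, Actn2 and Xirp2. The part of fiber RNA in the result was not tested beyond this.

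Some markers of mural cells, the smooth muscle cells and pericytes of vessel walls, moved with the groups as well. Of 16 mural markers all 16 were tested and 8 were higher with 0 lower, where 5.34% of all genes tested were higher. Among the 8 were Cnn1, Tagln, Mylk, Myh11 and Lmod1. Rgs5, Pdgfrb, Kcnj8 and Abcc9 were not called, with log2 fold changes of 0.0025, -0.062, -0.36 and -0.23. The log2 fold change was above 0 in 12 of the 16 markers. The summed level of the 16 markers was 7609 to 12190 CPM in WT and 15520 to 22360 CPM in cD2KO, without overlap. Myh11, the smooth muscle myosin heavy chain, was at 2130, 2000 and 2445 CPM in WT and 3107, 3880 and 6127 CPM in cD2KO. With the mean log2 CPM of the mural markers in the model, 0 of the 38 genes were higher, where 0.842% of all genes were, Myl3 was lower (log2 fold change -1.69), and the median of the list was -0.016. In this model the log2 fold change was 1.003 for Csrp3, 0.84 for Myom1, 0.76 for Tnnc1, 0.40 for Des, 0.31 for Tcap and 0.097 for Ldb3, and below 0 for the other 6 of the 12 genes. The mural score itself separated the groups, and its part in the result cannot be told apart from that of the genotype. Immune markers summed to 4426 to 8161 CPM in WT and 221 to 2892 CPM in cD2KO, with the library labelled fl125 at the lower end, and their part was not tested.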

How the data were processed

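RNA-seq of qMuSCs from 3 WT and 3 cD2KO mice was taken from the table of raw counts of reads per gene that the authors deposited, in whole numbers and without normalization. Per the submitters' processing notes, bcl2fastq, STAR 2.6.0a, HTSeq 0.9.1 and mm10 were used. The annotation, the strand setting and any removal of duplicates are not given in the sources used here. Symbols, positions and overlaps came from GENCODE M21, in which 31011 of 31053 identifiers were found. The 38 genes and all lists were chosen with earlier results of these data known.

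The fit took genes whose DESeq2-normalized counts averaged above 10. In R 4.3.3, edgeR 4.0.16 was used for TMM scaling and for a robust quasi-likelihood fit of genotype. Calls were made at p under 0.05 without adjustment, and Benjamini-Hochberg values from all 11633 genes are printed beside them. SE was derived from the log2 fold change and its F statistic. CPM used the TMM-scaled libraries. Alternatives were other scalings, DESeq2 1.42.0, limma voom 3.58.1, other filters, marker scores (mean log2 CPM, prior count of 2) as covariates and leaving out mice. The edgeR, DESeq2 and limma voom fits of genotype were first tested on simulated counts, and the other steps were not. No pair of libraries agreed within sampling noise (lowest chi-square per degree of freedom 8.66).

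Genes with p under 0.05 were named with the value in every mouse, as were the 2 genes of highest mean CPM in each structural group. The remaining genes were given by fold change, and of the other lists at most 5 genes by smallest p. Myom3, Actc1, Flnc, Myoz2, Xirp1 and Smyd1 are described in more detail than this rule asks, as chosen after their values were seen. Rgs5, Pdgfrb, Kcnj8 and Abcc9 of the mural list were also named after their values were seen.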

Additional observations from a re-analysis of the deposited data

How the results depend on the processing

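With DESeq2 size factors, upper quartile factors, limma voom, filterByExpr or no expression minimum, 11 to 14 of the 38 genes were higher. Under these settings 4.78% to 5.79% of all genes tested were higher. DESeq2's Wald test gave 18, where 5.25% of all genes tested were higher. Scaling to total counts alone gave 7, where 3.77% were. An adjusted p under 0.05 gave 0 in edgeR, where 0.0086% of all genes tested were higher at that level. The same threshold gave 5 in edgeR without the library labelled fl125 (1.51% of all genes tested) and 3 in DESeq2 (0.868%). With the mural score 0 were higher and 1 lower, where 0.842% of all genes tested were higher and 0.722% were lower. The median log2 fold change was then -0.016. With the myofiber score 2 were higher, where 3.45% of all genes tested were, and the median was 0.077. With each mouse left out the count was 5 to 20 (lowest without c130 or without fl128, highest without the library labelled fl125). In these fits 3.46% to 7.93% of all genes tested were higher. With c130 and fl128 both left out, chosen after seeing the data, the count was 4, where 2.49% of all genes tested were higher, with a median of 0.24. Of the other sarcomere genes, 6 higher in the main setting became 0 with the mural score, 1 with the myofiber score, 3 with c130 and fl128 both left out, and 0 at the adjusted threshold. The 1 lower became 0 with the mural score and at the adjusted threshold, 2 with the myofiber score and with no minimum, and was 1 to 2 with each mouse left out. Their median was -0.042 with the myofiber score, 0.18 without fl128 and 0.14 with c130 and fl128 both left out. The cause of these shifts was not tested. Of 608 values of single genes under another setting, 455 kept direction and side of the threshold, 56 lost and 36 gained p under 0.05, and 61 changed sign, most under the 2 scores. With the mural score these were Tnnt1 -0.46, Tnnt2 -1.25, Tnnt3 -0.27, Tnni1 -0.51, Tnnc2 -0.16, Myl1 -0.14, Mylpf -0.17, Myl2 -0.038, Myl3 -1.69, Neb -0.033, Actn2 -0.54, Actn3 -0.32, Myoz1 -0.38, Myoz2 -0.68, Mb -0.77, Xirp2 -0.15, Flnc 0.61, Ankrd2 -0.67, Smyd1 -0.47. With the myofiber score they were Acta1 -0.42, Tnnt2 -1.21, Tnnt3 -0.47, Tnni2 -0.56, Tnnc2 -0.34, Myl1 -0.18, Mylpf -0.55, Myl3 -0.78, Mybpc1 0.34, Mybpc2 -0.12, Actn3 -0.57, Myoz1 -0.34, Myoz2 -1.18, Myot -1.002, Ckm -0.64, Mb -0.46, Pdlim3 -0.081, Flnc 0.017. Without c130 and fl128 they were Tnnt2 -1.13, Tnnt3 -0.081, Tnni2 -0.12, Mylpf -0.066, Myl3 -0.41, Mybpc1 0.042, Actn3 -0.094, Myoz2 -0.15, Myot -0.36, Ckm -0.082, Mb -0.035. Tnnt2 was at -0.074 with total counts and -0.29 in limma voom, where Myom2 was at -0.029. With each mouse left out, log2 fold changes that changed sign ranged as follows: Tnnt2 -0.97 to 0.45, Myl3 -0.12 to 0.84, Mybpc1 -0.69 to 0.12, Myom2 -0.29 to 0.71, Myot -0.077 to 0.81. The median log2 fold change of all genes lay between -0.086 (total counts alone) and 0.012 (without c129) over the settings. No paired analysis was possible because the mice of the groups share no litter or batch label. Depth limits the 8 genes with under 20 counts in at least 1 mouse (Tnnt2, Tnni1, Tnnc1, Myom2, Myom3, Myoz2, Ankrd2 and Smyd1).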

Other observations

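Lists of markers of other cell types differed in direction. Of 13 endothelial markers tested 0 were higher and 6 lower, with a median log2 fold change of -1.12, among them Flt1, Kdr, Cldn5, Pecam1 and Egfl7. All 16 immune markers had a log2 fold change below 0, with 5 lower (Msr1, Ptprc, Itgam, Cd68 and Adgre1) and a median of -1.88. The library labelled fl125 had the lowest immune sum, at 221 CPM. Of 10 fibroadipogenic markers 1 was higher (Mfap5) and 3 lower (Smoc2, Col1a2 and Lum).

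The list of 16 regulators and markers of myogenic differentiation had 0 calls in either direction at p under 0.05 without adjustment (edgeR). Over all genes tested 5.34% were higher and 6.62% were lower. From the list, Myf6, Mymx, Chrng and Myh8 fell below the expression minimum and were not tested. For the 12 genes tested the median log2 fold change was 0.24, between -0.31 and 0.88. The summed level of the list was 931 to 1027 CPM in WT and 979.5 to 1224 CPM in cD2KO.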
